A study of Mus musculus with 30 samples.

Results

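Retinas of mouse pups that received an intravitreal injection of saline on postnatal day 12 (P12) were compared with retinas of untreated pups of the same disease model, oxygen-induced retinopathy (OIR). The 6 arrays were those labelled as P12 saline treatment (3) and as OIR without treatment (3), of 30 arrays in the series, and the 12393 genes measured were all compared. Both groups had been kept in 75% oxygen from P7 for 5 days and then returned to room air, so both carried the oxygen exposure. By design they differed in the needle and the saline. They also differed in array measures and in the share of females, given below. The label of every retina gave collection at P17, while the protocol text allows P12 or P17. Each array held total RNA of 1 retina from 1 pup. The other 24 arrays were 3 of normoxia retinas, kept in room air and not injected, 12 of OIR retinas injected at P5, and 9 of OIR retinas that received human cells in the same P12 injection. These cells were 100000 endothelial colony-forming cells (ECFC), 10000 CD34+ cells, or both together (combination). The comparison sets retinas with the injection beside retinas without it. 

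In OIR, high oxygen prunes the growing capillaries of the retina, and on return to room air the tissue without vessels becomes hypoxic. Hypoxia stabilises HIF transcription factors, Vegfa is induced, and endothelial tip cells lead sprouts out of the retina, while Muller glia, the radial support cells, become reactive. A needle that crosses the eye wall can itself injure tissue, and injured retina is known for reactive glia, for protective factors such as Fgf2 and for carry-over of lens, pigment epithelium or blood.

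The arrays of the 2 groups differed in several array measures. Of those given here, the spiked-in controls hold no retinal RNA. The Gapdh and beta-actin differences and the interquartile range are read from retinal RNA. The spiked-in hybridisation controls (18 probe sets, added after labelling) averaged 13.25 to 13.48 on the log2 scale on the saline arrays and 12.44 to 12.52 on the untreated OIR arrays. The exact two-sided permutation p was 0.1, the smallest that 3 against 3 arrays allow. All 12 arrays of P12 groups lay at 13.23 to 13.65 and the other 18 at 11.86 to 12.96, without overlap. The 3' minus 5' difference of the Gapdh control probe sets, a measure of how far back from the transcript's end the labelled RNA reached, was 1.04 to 1.18 after saline and 1.23 to 1.45 in untreated OIR. It also separated all P12 arrays (1.03 to 1.22) from the others (1.22 to 1.85). The same difference of the beta-actin control probe sets went the other way, at -0.27 to -0.13 after saline and -0.33 to -0.31 in untreated OIR. Over all groups the beta-actin difference overlapped, at -0.27 to -0.08 on P12 arrays and -0.43 to -0.07 on the others. The interquartile range of an array was 3.41 to 3.46 after saline and 3.55 to 3.63 in untreated OIR. Over all groups it overlapped, at 3.03 to 3.46 on P12 arrays and 3.32 to 3.64 on the others. Injection day and these array measures therefore cannot be told apart in any result below. Of the pups, 1 of 3 was female after saline and 2 of 3 in untreated OIR.

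**Figure D1:**
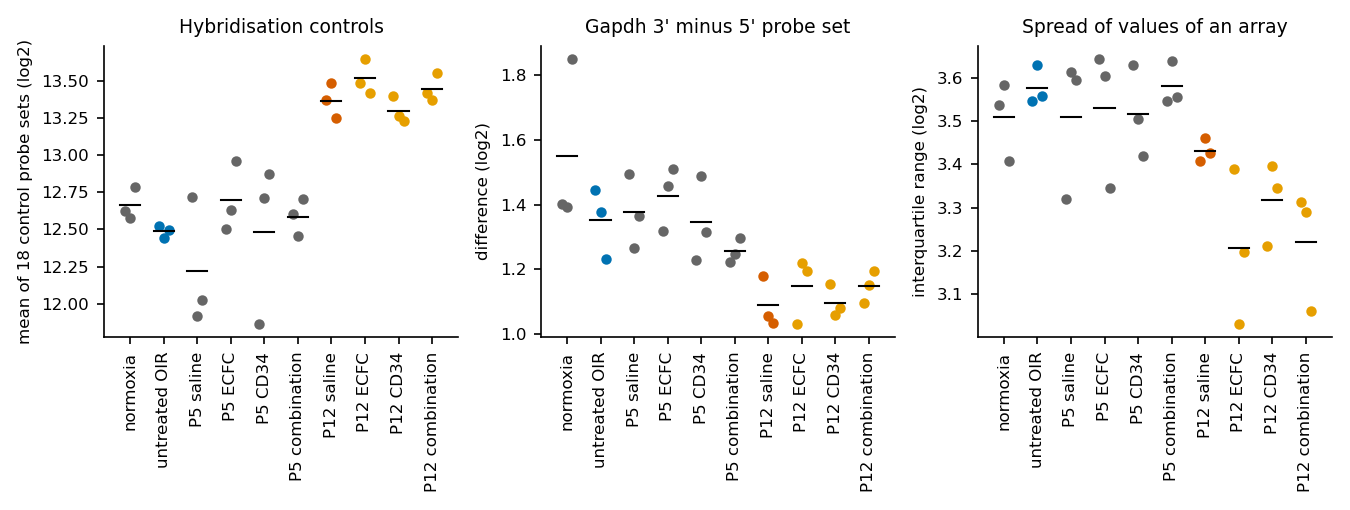
Measures of each array (points) in the 10 groups, with the group mean as a line: the mean log2 value of 18 hybridisation control probe sets, the log2 difference of the Gapdh 3' and 5' control probe sets, and the interquartile range of log2 values. Hybridisation controls of the 12 P12 arrays lie at 13.23 to 13.65, above all 18 other arrays.

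The labelled tissue carried its defining markers in both groups. The rod genes Sag and Gnat1 stood at log2 levels of 14.24 and 14.27 after saline and 14.24 and 14.33 in untreated OIR, the Muller glia gene Glul at 13.58 and 13.55, and the neurofilament gene Nefl of ganglion cells at 13.47 and 13.53. In whole retina, fewer cells of a type and less RNA per cell cannot be told apart.

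With limma's test across all genes, 2642 of 12393 genes (21.3%) were called at an adjusted p under 0.05: 738 higher after saline (5.95%) and 1904 lower (15.4%). Most differences were small: 25 of the higher and 80 of the lower genes reached 2-fold. In 2615 of the called genes all 3 arrays of one group lay beyond those of the other, and over all genes the arrays did not overlap in 5992 (48.3%). The split between higher and lower depended on the scale. The share of called genes that were higher was 27.9% as deposited, 47.7% after quantile normalization, 68.9% after median centring of each array, which moved the median difference of all genes from -0.03 to 0.16, and 48.6% when the fit held the hybridisation control mean of each array as a covariate. A smaller set was called with 1 sign under all 4 of these scalings: 373 genes higher (3.01%) and 414 lower (3.34%). These are described below as called in 4 scalings. Of these 787 genes, 631 were also called without each of the 6 arrays in turn, 218 higher and 413 lower. The direction of a gene called only as deposited is relative to the deposited scale.

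Dim and bright genes moved differently. The genes were split by mean level into 5 classes of equal size, from class 1, the dimmest, to class 5. In class 1 the median difference was 0.18, with 5.85% called higher and 1.29% lower. In classes 3 and 4 it was -0.17 and -0.15, with 23.3% and 25.1% called lower, and in class 5 -0.05. After quantile normalization these medians ran from -0.02 to 0.01, and with the hybridisation control covariate that of class 1 was -0.15. The length of the gene on the genome also moved with the difference. Among genes outside the lowest 30% of levels, 28.4% of the shortest of 5 such classes of span (up to 7.99 kb) were called lower and 2.37% higher. Of the longest class (from 68.99 kb) 12.2% were called lower and 10.3% higher. The median span was 42.9 kb for the genes higher in 4 scalings, 14.6 kb for those lower and 23.5 kb for all 8663 genes with a span. Across these genes Spearman's rho of span and difference was 0.21 as deposited, 0.23 after quantile normalization and 0.17 with the hybridisation control covariate, while rho of span and level was -0.003. Genes are not independent replicates, so this is a description of these 6 arrays.

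**Figure D2:**
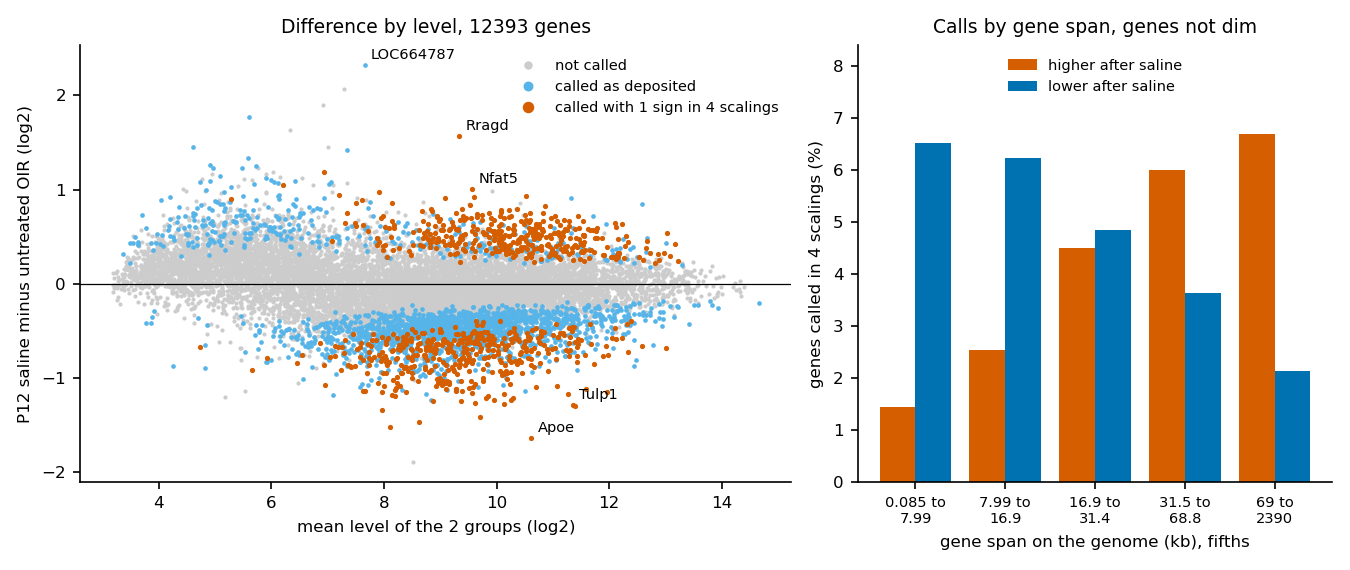
Left, the log2 difference of P12 saline minus untreated OIR against the mean log2 level of the 2 groups, 1 point per gene. Right, the percentage of genes called with 1 sign in 4 scalings in 5 classes of gene span in kb. On the deposited scale the dimmest genes lie more often above 0 and genes of middle level below it. The share called higher grows from the shortest to the longest genes while the share called lower shrinks.

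Many genes have a second probe set that reads another stretch of the transcript. Of 952 called genes with 2 probe sets outside the dim range, the second had the same sign in 625 (65.7%). It was itself called with the same sign in 300 and with the opposite sign in 80. Among genes called in 4 scalings it had the same sign in 259 of 386 (67.1%). For untreated OIR against normoxia, on the same 3551 genes, 158 of 175 called genes (90.3%) had a second probe set of the same sign, and 0 were called in opposite directions, although the median size of a called difference was also larger there (0.67 against 0.47). A probe set of opposite sign is therefore given below for each called gene described, and other probe sets for a part of the genes.

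The other P12 groups were set beside saline. The test used their mean, so it does not show what each kind of cell altered by itself. In the mean of the 3 cell-injected P12 groups against P12 saline, limma called 0 of 12393 genes (percentage called: 0), with 1770 at an unadjusted p under 0.05. Weights for each array changed this to 2093 genes and the hybridisation control covariate to 8. The 373 genes higher in 4 scalings had a median difference from untreated OIR of 0.49 after saline, 0.29 after ECFC, 0.34 after CD34+ cells and 0.31 after the combination, and of 0.03 after saline at P5. For the 414 lower genes these medians were -0.72, -0.68, -0.60, -0.68 and -0.03. All of these differences share the 3 untreated OIR arrays, and the genes were chosen on the first of them. The normoxia retinas, which were not injected, lay at -0.09 and -0.04 relative to untreated OIR.

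Apoe, the main lipid carrier made by Muller glia, fell most among the genes of full separation outside the dim range. Its log2 levels were 9.79, 9.89 and 9.71 after saline and 11.58, 11.63 and 11.10 in untreated OIR. All saline arrays lay below all untreated arrays and below the normoxia retinas, which were at 11.42, 11.43 and 11.02. The difference was -1.64 ± 0.26 (SE, adjusted p = 9.4e-05), and it was -0.91 with the hybridisation control covariate. In the cell-injected P12 groups Apoe stood -1.32, -1.68 and -1.62 from untreated OIR.

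Tulp1, a photoreceptor gene needed for protein transport to the outer segment, was read at 10.55, 10.85 and 10.72 after saline and at 12.01, 12.05 and 11.94 in untreated OIR. All saline arrays lay below all untreated and normoxia arrays, the latter at 11.53 to 12.11. It fell by 1.29 ± 0.16 (adjusted p = 7.8e-06). Pik3r2, a regulatory subunit of PI3 kinase, fell by 1.35 ± 0.13, from 8.48, 8.87 and 8.57 to 7.15, 7.48 and 7.26. Diras1, a small GTPase, fell by 1.29 ± 0.28, from untreated levels of 11.79 to 12.31 to 10.71, 10.72 and 10.78. A second probe set of Diras1 stood at -0.96 ± 0.24 and the third at 0.40 ± 0.17.

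The difference with the strongest statistic was that of Rundc3a, a neuronal effector of Rap GTPase signalling. It was read at 9.15, 8.84 and 8.96 after saline and at 10.29, 10.29 and 10.19 in untreated OIR (-1.27 ± 0.10, adjusted p = 2.8e-08). Its second, dimmer probe set did not show this, at 0.02 ± 0.14. Pkib, an inhibitor of protein kinase A, was likewise lower by its brighter probe set (7.03, 7.52 and 7.51 against 9.11, 9.03 and 8.48) and at -0.03 ± 0.22 by the other. Both genes were thus lower in every saline array by one probe set, with no such difference by the other.

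Other falls were shared by the probe sets. Atp13a2, a lysosomal transporter linked to parkinsonism, was at 9.65, 9.73 and 9.69 against 10.97, 10.95 and 10.78, a difference of -1.21 ± 0.10, and its other probe sets gave -1.04 ± 0.11 and -0.47 ± 0.13. Elp3, the acetyltransferase subunit of Elongator, fell by 0.86 ± 0.08, with -0.82 and -1.20 by the others. Each of the 3 probe sets of Atp13a2 and of Elp3 was therefore lower after saline. Pick1, a scaffold of AMPA receptors, fell by 1.03 ± 0.09, from 9.99, 10.10 and 10.11 to 8.99, 9.07 and 9.05. Elmo2, a regulator of Rac in engulfment and migration, fell by 1.14 ± 0.10, the ubiquitin ligase Mib2 of the Notch pathway by 0.92 ± 0.09, and Atp13a1, an endoplasmic reticulum transporter, by 1.25 ± 0.14. Among further genes with 1 probe set, the palmitoyl thioesterase gene Abhd17a fell by 1.46 ± 0.23, R3hcc1 by 1.41 ± 0.19, the Toll-like receptor chaperone gene Cnpy3 by 1.27 ± 0.16 and Tmem132a by 1.25 ± 0.14. The intramembrane protease gene Sppl2b (0.78), Btbd2 (0.88), the snoRNP gene Gar1 (0.80) and Cc2d1a (1.09) fell by the amounts in brackets, on the log2 scale. Apart from Ctnnbip1, an inhibitor of beta-catenin (-1.24 ± 0.23 by one probe set and -0.00 ± 0.13 by the other), the 12 largest falls were called in 4 scalings.

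The largest rise that held in 4 scalings was that of Rragd, a Rag GTPase that signals nutrient state to mTORC1 at the lysosome. It was read at 10.11, 10.23 and 10.04 after saline and at 8.52, 8.80 and 8.36 in untreated OIR. The groups did not overlap, and the normoxia retinas lay lower still, at 8.18 to 8.56. The difference was 1.57 ± 0.16 (adjusted p = 9.0e-07), and the ECFC, CD34 and combination groups stood 1.26, 1.21 and 1.37 above untreated OIR.

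Nfat5, the transcription factor of the response to hypertonicity, rose by 1.01 ± 0.17 (adjusted p = 0.00018), from 8.996, 8.95 and 9.24 to 10.33, 9.84 and 10.04. Of its other 3 probe sets one stood at 0.52 ± 0.17 and the others at 0.13 ± 0.13 and 0.14 ± 0.18. Kcnj2, an inward rectifier potassium channel, rose by 0.97 ± 0.16, from 7.55, 7.34 and 7.37 to 8.34, 8.30 and 8.53. Lats1, a kinase of the Hippo pathway, rose by 0.79 ± 0.10, from 8.99, 9.004 and 9.002 to 9.94, 9.69 and 9.74. Both were higher in every saline array than in every untreated or normoxia array.

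Kif5b, the heavy chain of the transport motor kinesin-1, was at 11.87, 11.77 and 11.76 against 11.20, 11.02 and 11.02 (0.72 ± 0.09), and its other 4 probe sets stood at 0.37, 0.31, 0.13 and 0.18. Smad4, the shared mediator of TGF-beta signals, rose by 0.58 ± 0.08, and the SUMO protease Senp2 by 0.57 ± 0.08, with 0.60 and 0.86 by its other probe sets. The probe sets of these 3 genes had the same sign throughout. The exonuclease gene Xrn2 (0.69 ± 0.09) stood at 0.06 and 0.15 by its other probe sets, and Hbs1l, a ribosome rescue factor, at 0.92 ± 0.12 by one and -0.23 ± 0.11 by the other. The helicase gene Dhx36 was at 0.75 ± 0.10 and -0.14 ± 0.13. Npnt, the integrin ligand nephronectin, was higher by its brightest probe set (0.94 ± 0.25), while its others ranged from -0.06 to 0.49. The ubiquitin ligase Mib1 of the Notch pathway, read by 1 probe set, rose by 0.72 ± 0.10 (10.48, 10.39 and 10.41 against 9.71, 9.66 and 9.75), where Mib2 fell. Tmem242 rose by 0.91 ± 0.13 and Zmym5 by 0.77 ± 0.10.

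A few large rises were seen as deposited but not in 4 scalings. LOC664787 was read at 8.41, 8.86 and 9.18 against 7.30, 6.70 and 5.50, a difference of 2.32 ± 0.63 that was 0.66 with the hybridisation control covariate. Its normoxia levels ran from 6.71 to 9.37 and overlapped both groups. Tspan8, a tetraspanin, differed by 1.08 ± 0.36 as deposited. With that covariate its difference was -0.29, of opposite sign but not called. The proton pump subunit gene Atp4b (1.06 ± 0.26), Mtm1 (0.91 ± 0.26) and Epsti1 (0.91 ± 0.32) shrank to 0.25, 0.05 and 0.12 with the covariate.

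**Figure D3:**
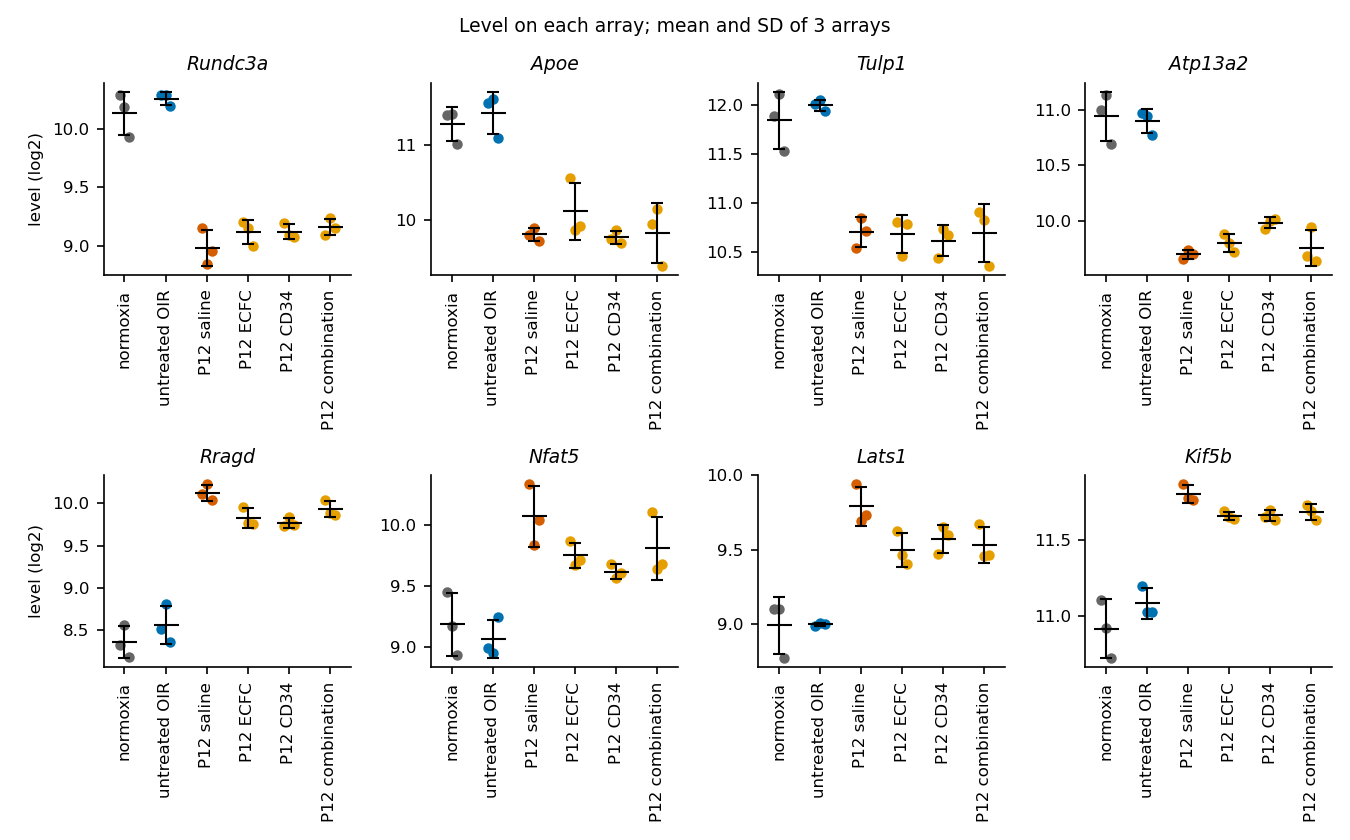
Log2 level of 8 genes on each array (points), with the mean and SD of 3 arrays, in normoxia, untreated OIR and the 4 groups injected at P12. Rundc3a, Apoe, Tulp1 and Atp13a2 lie lower and Rragd, Nfat5, Lats1 and Kif5b higher on all saline arrays than on all untreated OIR arrays, and the cell-injected P12 groups lie near saline.

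Genes of cell types and pathways were counted in 39 lists, with 794 of 926 members measured and 128 called. Each count as deposited is to be read against 5.95% higher and 15.4% lower over all genes, and each count after median centring against 17% higher and 7.67% lower. These shares were 9.3% and 10.2% after quantile normalization and 6.51% and 6.89% with the hybridisation control covariate. In the rod list 3 of 29 members were called higher and 4 lower, and the median difference was 0.02. Pde6a, the catalytic subunit of the rod phosphodiesterase, rose by 0.48 ± 0.11 (12.47, 12.39 and 12.31 against 12.01, 11.95 and 11.78). Grk1, a kinase that shuts off photoreceptor signalling, rose by 0.54 ± 0.15. Besides Tulp1, the disc rim gene Prph2 fell by 0.63 ± 0.15 (11.05, 11.13 and 10.94 against 11.85, 11.76 and 11.41) and the cyclic nucleotide channel gene Cngb1 by 0.47 ± 0.11. The groups did not overlap in these 4 genes, of which Pde6a was called in 4 scalings. After median centring 9 rod genes were called higher and 2 lower, and the balance over all genes turned the same way with that scale. In the cone list 2 of 15 were called higher, Grk1 and the thyroid receptor gene Thrb that directs cone opsin choice (0.57 ± 0.14). The cone genes Opn1sw (0.22 ± 0.16) and Arr3 (-0.14 ± 0.15) were not called. Of 10 photoreceptor transcription factors Thrb and Rorb (0.52 ± 0.12) rose and Mef2d fell by 0.75 ± 0.14, with -0.37 ± 0.10 by its second probe set, and all 3 were called in 4 scalings.

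On the deposited scale genes of inhibitory amacrine cells held the most falls of the neuronal lists, 5 of 19 with 3 higher. None of these 8 was called in 4 scalings. The list had 3 lower and 3 higher after quantile normalization, 3 lower and 4 higher after median centring, and 0 of either with the hybridisation control covariate. The vesicular GABA transporter Slc32a1 fell by 0.66 ± 0.14 (10.96, 10.99 and 10.80 against 11.48, 11.71 and 11.53), with -0.14 ± 0.14 by its second probe set, and the glycine transporter Slc6a9 by 0.56 ± 0.14. Slc18a3, the vesicular acetylcholine transporter of starburst cells, fell by 1.10 ± 0.36, from 8.52, 8.17 and 7.69 to 6.99, 7.32 and 6.77. The GABA synthesis gene Gad2 rose by 0.53 ± 0.19. Pax6, which maintains amacrine identity, rose by 0.39 ± 0.12 by its brightest probe set, while its others stood at -0.02, 0.12 and -0.32 and the dimmest at -0.57 ± 0.20.

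In the bipolar list 1 of 18 members was called higher and 2 lower. Rgs11, part of the complex that speeds the ON bipolar light response, fell by 0.70 ± 0.15 (8.52, 8.48 and 8.56 against 9.15, 9.31 and 9.21). Cabp5, a calcium sensor, was opposite by its 2 probe sets (0.61 ± 0.16 and -0.55 ± 0.15), both called when all probe sets were tested. In the horizontal cell list Slc4a3, an anion exchanger, fell by 0.87 ± 0.14 and Prox1 rose by 0.54 ± 0.19, of 7 members. Of 18 ganglion cell genes 0 were called, with a median difference of -0.12 and 1 at an unadjusted p under 0.05.

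Of 25 synapse genes 2 were called higher and 4 lower. Syt1, the calcium sensor of vesicle fusion, rose by 0.54 ± 0.08 (13.33, 13.27 and 13.29 against 12.82, 12.68 and 12.77), and its second probe set stood at 0.40 ± 0.09. Cplx2, a regulator of the fusion machinery, fell by 0.86 ± 0.20 (10.17, 10.26 and 10.11 against 11.21, 11.10 and 10.83). Both were called in 4 scalings and in both the groups did not overlap.

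In the Muller glia list 1 of 26 members rose and 3 fell. Besides Apoe, Id3, an inhibitor of differentiation factors, fell by 0.77 ± 0.16 (8.71, 9.01 and 8.90 against 9.61, 9.75 and 9.58) and Hes1, a Notch target, by 0.39 ± 0.14. Sox9, a glial transcription factor, rose by 0.58 ± 0.17 (9.74, 9.96 and 10.16 against 9.33, 9.15 and 9.63), with 0.46 ± 0.15 by its second probe set. In normoxia it stood at 8.63 to 8.81.

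Reactive glia and injury genes, 29 measured, gave 1 call against untreated OIR, a fall of the stress gene Gadd45g by 0.58 ± 0.11. Their spread among untreated OIR pups was wide. Gfap, the filament protein of reactive Muller glia, was at 10.45, 11.03 and 11.08 after saline and at 9.17, 9.55 and 11.27 in untreated OIR. Edn2, an endothelin that stressed photoreceptors release, was at 8.18, 9.63 and 9.70 against 6.77, 7.70 and 10.88. Fgf2 was at 10.17, 11.15 and 11.24 against 9.31, 9.81 and 11.59. In each, untreated OIR replicate 3 was the highest of the 6 arrays and the other untreated arrays lay below all saline arrays. Untreated OIR replicate 3 was the only male of its group, and the lowest saline array in each was that of the only female given saline. The part of sex in this spread was not tested. The differences did not pass, at 0.86 ± 0.72, 0.72 ± 1.28 and 0.62 ± 0.79. Lcn2, an acute phase gene, had the same untreated array on top (10.80, with 7.17 and 7.42) and stood at 6.89, 8.37 and 8.36 after saline.

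The retinas given saline were also compared with normoxia, where limma called 1231 genes higher (9.93%) and 2176 lower (17.6%). This contrast shares the saline arrays with the one above, and it adds the oxygen exposure to the injection and the array differences. Of the 29 reactive genes 15 were higher after saline than in normoxia and 1 lower, with a median difference of 1.41 against -0.04 over all genes. Gfap stood 2.92 above normoxia (adjusted p = 0.0038) and Fgf2 2.83. Edn2 stood 3.59 above normoxia. Its normoxia levels of 5.25, 5.56 and 5.95 reached into those of the female-specific Xist on male arrays (4.48 to 5.70). The difference may therefore be a lower bound, but the background of the Edn2 probe set itself was not measured. In the Muller glia list 6 of 26 were higher than in normoxia and 8 lower.

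**Figure D4:**
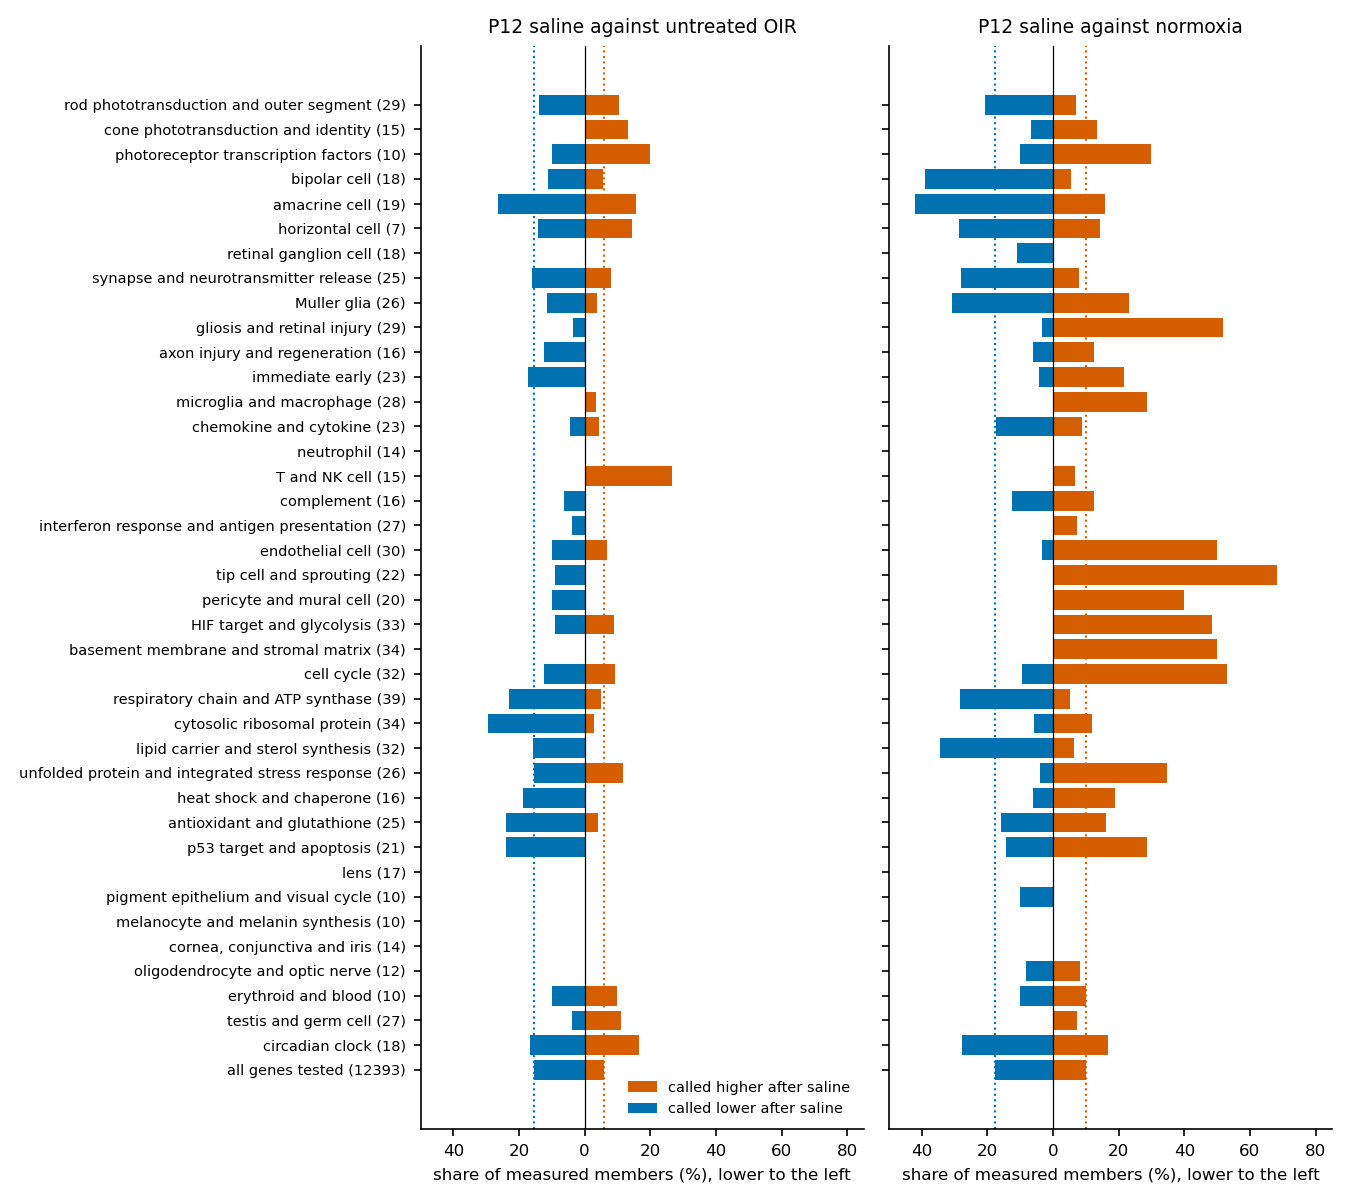
Share of the measured members of each gene list (number in brackets) called higher (right) and lower (left) in P12 saline against untreated OIR and against normoxia, with dotted lines at the shares over all genes tested. Vessel, hypoxia, matrix and gliosis lists reach far to the right of the line against normoxia and lie near or inside the lines against untreated OIR.

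Most vessel and hypoxia genes were not called against untreated OIR, while many were higher than in normoxia, and a few moved in either direction. Of 22 tip cell and sprouting genes 2 fell against untreated OIR, and 15 were higher than in normoxia with a median of 1.30. Unc5b, a netrin receptor that restrains tip cells, was at 9.14, 8.97 and 9.27 after saline and at 10.02, 10.25 and 10.41 in untreated OIR. It fell by 1.10 ± 0.25 to the range of normoxia (9.12, 9.27 and 8.28), from which it differed by 0.24 (adjusted p = 0.55). Dll4, the Notch ligand of tip cells, fell by 0.72 ± 0.17, with -0.66 ± 0.17 by its second probe set. Neither Unc5b nor Dll4 was called in 4 scalings. Esm1, a tip cell marker, was at 7.05, 6.70 and 7.91 against 7.79, 7.97 and 8.78 (-0.96 ± 0.48, adjusted p = 0.16). Its normoxia levels of 3.34 to 4.18 were in the range of the Y-linked Eif2s3y on female arrays (3.84 to 4.83) or below it. The difference of 3.45 from normoxia may therefore be a lower bound. Angpt2 (-0.35 ± 0.31) and Apln (-0.48 ± 0.35) did not pass, and stood 1.64 and 2.77 above normoxia.

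Of 30 endothelial genes 2 were called higher and 3 lower than in untreated OIR, and 15 were higher than in normoxia. Pecam1, a junction protein of all endothelium, rose by 0.53 ± 0.17 (9.59, 9.50 and 9.48 against 9.15, 8.92 and 8.92). The endothelial TGF-beta coreceptor Eng fell by 0.67 ± 0.15 (8.31, 8.50 and 8.43 against 8.89, 9.16 and 9.20), with -0.08 ± 0.23 by its second probe set. Vwf, the clotting factor stored by endothelium, fell by 0.69 ± 0.21, and remained 1.26 above normoxia. Plvap, a component of fenestrations, fell by 0.57 ± 0.17. The VEGF receptor gene Flt1 rose by 0.38 ± 0.12, with 0.18 and 0.14 by its other probe sets. The arrays of the groups did not overlap for Pecam1, Eng, Vwf and Plvap, of which Eng was called in 4 scalings.

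Of 20 genes of pericytes and other mural cells 2 fell. Cspg4, which codes the pericyte proteoglycan NG2, was at 7.84, 7.80 and 8.07 after saline, at 8.68, 8.83 and 8.88 in untreated OIR and at 7.54, 7.60 and 7.19 in normoxia. It fell by 0.90 ± 0.18 and its second probe set stood at -0.33 ± 0.20. Notch3, the mural cell Notch receptor, fell by 0.44 ± 0.15. Neither Cspg4 nor Notch3 was called in 4 scalings. Rgs5 (0.08 ± 0.16), a pericyte regulator of G proteins, and the receptor gene Pdgfrb (-0.09 ± 0.17) were not called, and both were above normoxia, by 0.88 and 0.61. For Cspg4 every saline array lay between the normoxia and the untreated OIR arrays.

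**Figure D5:**
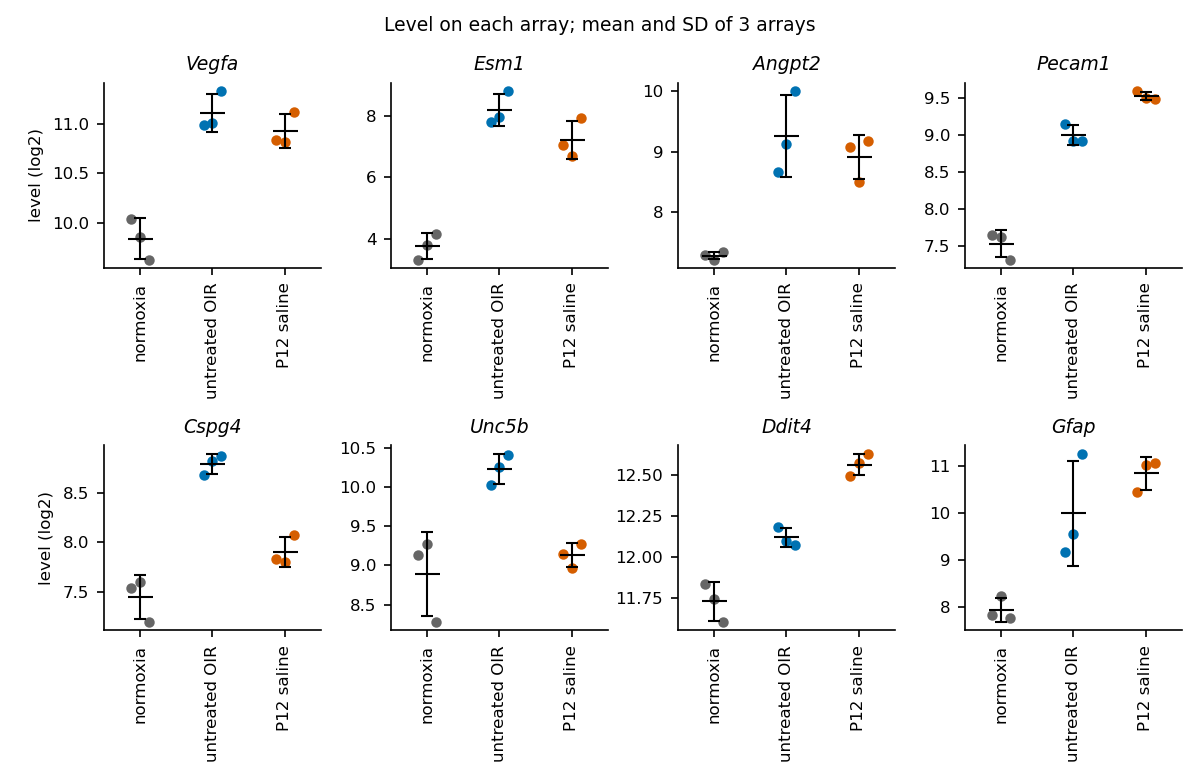
Log2 level of 8 vessel, hypoxia and glial genes on each array (points), with the mean and SD of 3 arrays, in normoxia, untreated OIR and P12 saline. Pecam1 and Ddit4 lie higher and Cspg4 and Unc5b lower on all saline arrays than on all untreated OIR arrays, while the arrays overlap for Vegfa, Esm1, Angpt2 and Gfap. Of the genes without overlap only Ddit4 was called in 4 scalings.

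Among 33 HIF targets and glycolysis genes 3 were called higher and 3 lower than in untreated OIR, and 16 were higher than in normoxia with 0 lower. Vegfa was at 10.83, 10.82 and 11.12 against 10.99, 11.01 and 11.32 (-0.18 ± 0.18), 1.08 above normoxia. Ddit4, an inhibitor of mTORC1 induced by hypoxia, rose by 0.44 ± 0.11 (12.49, 12.57 and 12.62 against 12.18, 12.10 and 12.07). Mxi1, an antagonist of Myc, rose by 0.39 ± 0.13, with 0.11 ± 0.14 by its second probe set. Ero1a, an oxidase of protein folding, rose by 0.52 ± 0.18, and its other probe sets parted, at 0.17 ± 0.17 and -0.12 ± 0.17. These 3 were the HIF list members called in 4 scalings. The lactate exporter Slc16a3 fell by 0.78 ± 0.21, from 10.42, 10.48 and 10.84 to 9.81, 9.72 and 9.89. Of 34 basement membrane and matrix genes limma called 0 against untreated OIR (1 at an unadjusted p under 0.05, 0 after quantile normalization, 1 after median centring, 2 higher and 1 lower with the hybridisation control covariate), and 17 were higher than in normoxia. In the cell cycle list 3 of 32 rose, among them the spindle motor Kif11 by 0.89 ± 0.14 (0.22 and -0.0033 by its other, dim probe sets), and 4 fell, among them the helicase genes Mcm6 by 0.47 and Mcm7 by 0.41. Rrm1, a subunit of ribonucleotide reductase, was opposite by its 2 probe sets (-0.56 ± 0.10 and 0.55 ± 0.13).

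Immune cell genes gave few calls. Of 28 microglia and macrophage genes 1 was called higher, the dim integrin gene Itgam (5.37, 5.44 and 5.06 against 4.64, 4.49 and 4.73), whose levels lay within or below those of Xist on male arrays (4.48 to 5.70). The microglial receptor Cx3cr1 stood at 0.38 ± 0.23 (adjusted p = 0.27). Against normoxia 8 of 28 were higher. Of 14 neutrophil genes limma called 0, with 5 at an unadjusted p under 0.05. In the T and NK cell list 4 of 15 were called higher, with 12 of the 15 in the dim range, and 5.85% of all genes in level class 1 were called higher. Of these 4, the one at a clear level was Prf1, the cytolytic protein perforin (10.42, 10.33 and 10.33 against 9.97, 9.69 and 9.97), whose second probe set, at a background level, stood at 0.00 ± 0.18. The T cell marker Cd3e was at 5.21 and 4.80. Irf7, a driver of interferon genes, fell by 0.62 ± 0.16 as the 1 call among 27 interferon and antigen presentation genes. In the chemokine list Il6 (3.77 against 3.34, at background) was called higher and Tgfb1 fell by 0.67 ± 0.21, of 23.

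Ribosomal protein and respiratory chain genes fell more often than they rose on the deposited scale, as did all genes (15.4% lower and 5.95% higher). Of 34 cytosolic ribosomal protein genes 10 fell and 1 rose, but after median centring 4 fell and 5 rose. Rpsa fell by 0.68 ± 0.08 (12.62, 12.74 and 12.67 against 13.36, 13.31 and 13.40) and Rps4x rose by 0.21 ± 0.07, and these 2 were called in 4 scalings. Of 39 respiratory chain and ATP synthase genes 9 fell and 2 rose, against 5 and 11 after median centring. Atp5d, a subunit of the central stalk of ATP synthase, fell by 0.59 ± 0.09 (11.76, 11.94 and 11.76 against 12.38, 12.46 and 12.38), with -0.90 ± 0.14 by its second probe set. Sdhc, a membrane anchor of complex II, rose by 0.55 ± 0.10, with -0.00 ± 0.14 by its second probe set.

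In the list of lipid carriers and sterol synthesis 5 of 32 fell and 0 rose, against 4 and 4 after median centring. Besides Apoe, Srebf1, the transcription factor of lipid synthesis, fell by 1.08 ± 0.17 (8.39, 8.72 and 8.36 against 9.62, 9.59 and 9.50). Hmgcs1, an early enzyme of the mevalonate pathway, fell by 0.66 ± 0.11 (12.33, 12.22 and 12.21 against 13.09, 12.92 and 12.74), and its 3 other probe sets stood at -0.11, -0.37 and -0.35. Apoe, Srebf1 and Hmgcs1 were called in 4 scalings. Lrp1, the lipoprotein receptor, fell by 0.80 ± 0.20 and the HDL receptor Scarb1 by 0.49 ± 0.14, with -0.59 and -0.56 by its other probe sets. Against normoxia 11 of 32 were lower after saline and 2 higher.

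Stress genes showed no common direction that held on every scale, and over all genes median centring moved the shares from 5.95% higher and 15.4% lower to 17% and 7.67%. In the antioxidant list 6 of 25 fell and 1 rose as deposited, while 1 fell and 6 rose after median centring. In the p53 and apoptosis list 5 of 21 fell and 0 rose, against 2 and 4 after centring. The unfolded protein list had 3 of 26 higher and 4 lower, against 9 and 1 after centring. Sel1l, of the degradation complex of the endoplasmic reticulum, rose by 0.72 ± 0.14 (0.56, 0.02 and 0.00 by its other probe sets) and Pdia3, a disulfide isomerase, by 0.60 ± 0.13 (12.47, 12.35 and 12.45 against 11.55, 11.93 and 11.98), both in 4 scalings. The isomerase gene Pdia6 was opposite by its probe sets (-0.69 ± 0.12 and 0.51 ± 0.14). Of 16 heat shock genes 3 fell slightly, among them Dnajb1 by 0.32 ± 0.09 (0.13 ± 0.18 by its second probe set), and of 23 immediate early genes 4 fell, among them Nr4a2 by 0.62 ± 0.15 (7.997, 8.19 and 7.91 against 8.63, 8.75 and 8.58). A second probe set of Nr4a2 stood at 0.33 ± 0.14.

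Of 18 circadian clock genes 3 rose and 3 fell. Bhlhe41, a repressor of the clock, fell by 0.95 ± 0.14 (7.34, 7.50 and 7.68 against 8.36, 8.52 and 8.50) and Nr1d1, coding REV-ERB alpha, by 0.50 ± 0.12. Rora, the activator that competes with it, rose by 0.51 ± 0.09 (12.67, 12.47 and 12.49 against 12.15, 11.95 and 12.001), with 0.25 and 0.08 by its other probe sets. The hour of collection is not given in the labels, and its part in these values was not tested.

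Of the tissues that a needle or dissection may bring along, blood gave 2 calls and the others none on the deposited scale. Limma called 0 of 17 lens, 0 of 10 pigment epithelium, 0 of 10 melanin, 0 of 14 cornea and iris and 0 of 12 oligodendrocyte genes, with 0, 0, 0, 0 and 1 at an unadjusted p under 0.05, in that order. With the hybridisation control covariate 7 of the 17 lens genes were called lower (6.89% of all genes). The median of the list was -3.99 against -0.17 as deposited. The slope of that covariate is fitted within groups and then carried over the difference of 0.88 between these 2 groups. Within groups the controls spread most in P5 CD34 (SD 0.54) and P5 saline (0.43). Measured array means of the lens list were 6.29 to 6.38 after saline and 6.26 to 7.37 in untreated OIR, so -3.99 is no measured difference. After quantile normalization 1 cornea and iris gene was called lower. The lens crystallin Cryaa was at 6.82, 6.44 and 6.69 after saline and at 6.41, 5.99 and 7.06 in untreated OIR, whereas retinas given saline at P5 averaged 13.15. Rpe65, the isomerase of the visual cycle in pigment epithelium, was at 8.11, 7.57 and 7.17 against 6.83, 6.83 and 6.04, without overlap (1.05 ± 0.75, adjusted p = 0.34). Of 10 blood genes 1 rose and 1 fell. Hba-a2, an alpha globin, rose by 0.49 ± 0.14 (11.99, 12.13 and 12.24 against 11.51, 11.58 and 11.81). Tfrc, the transferrin receptor, fell by 0.63 ± 0.18 (11.51, 11.07 and 11.42 against 12.09, 11.98 and 11.83) by its brightest probe set, while its second stood at 0.68 ± 0.16, called in the opposite direction when all probe sets were tested, and the third at 0.04 ± 0.18. The red cell enzyme gene Alas2 averaged 7.33 and 7.34.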

How the data were processed

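Total RNA of 1 retina per pup was amplified, labelled and hybridised, per the labels' protocols. The authors deposited 1 normalized log2 value per probe set and array. The submitters' processing notes name Partek, and the normalization method is not given in the sources used here. Values were used as deposited.

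The table held 22690 probe sets, of which 64 were array controls; the annotation gave 20380 of them a single symbol, 691 more than 1 and 1555 none. Each symbol was read from its brightest probe set (mean over 30 arrays), which gave 12393 genes. Gene span came from the RefSeq gene table of GRCm38.p6 and was used as a length only. limma 3.58.1 (R 4.3.3) fitted 1 mean per group over 30 arrays (20 residual degrees of freedom), with eBayes, two-sided tests and Benjamini-Hochberg adjustment over 12393 genes. Errors are SE of the fitted difference. Dim means the lowest 30% of mean level. The count of 3 arrays per group limits the precision. No 2 arrays were identical. Replicates are separate pups.

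Settings tried instead were median centring, quantile normalization, the mean of a gene's probe sets, testing all probe sets, no dim genes, a minimum of 1.5-fold, trend and robust eBayes, array weights, a replicate block, only the groups compared, covariates for hybridisation controls and Xist, and leaving out each array. A covariate for the Gapdh 3' to 5' difference was added after seeing the data. On simulated data for P12 saline against untreated OIR with 12393 genes, the calls recovered 40, 86, 96 and 100% of 50 genes changed by 0.5, 1, 1.5 and 2 (log2), and 7 calls were false. The simulated noise was independent between genes and held no array differences. The false calls therefore do not describe the measured comparison, whose groups differ in array measures.

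Genes were named by a rule: the 12 largest rises and falls of full separation outside the dim range, the 12 strongest in each direction called in 4 scalings, up to 4 members per list by moderated t, and a fixed set (Apln, Apoe, Angpt2, Cspg4, Cx3cr1, Edn2, Esm1, Fgf2, Gfap, Glul, Lcn2, Opn1sw, Pecam1, Pdgfb, Pdgfrb, Plvap, Rgs5, Tulp1 and Vegfa). The text gives a part of them. Pdgfb, not given above, stood at -0.44 ± 0.17 (limma, adjusted p = 0.064), and its dimmer second probe set at -0.88 ± 0.25 (adjusted p = 0.014 over all probe sets). Tissue markers were fixed too, and Gad2, Ero1a, Rps4x and Scarb1 were chosen after their values were seen. The comparison and lists were chosen with earlier results of these data known.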

Additional observations from a re-analysis of the deposited data

Results flagged for a closer look

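The hybridisation controls are outside the gene comparison, and they averaged 13.37 on the log2 scale on the P12 saline arrays against 12.49 in untreated OIR, above all 18 arrays of groups not injected at P12. After quantile normalization over all probe sets, controls included, the difference of 0.88 was 0.87. Of 2246 probe sets with no gene symbol or with several, which the gene counts leave out, 379 (16.9%) were called, 175 higher and 204 lower.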

How the results depend on the processing

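Against untreated OIR the 2642 calls became 946 with a minimum of 1.5-fold, 4836 of 22626 when all probe sets were tested, 5155 with array weights, 3972 when only the groups compared were fitted, 1661 with the hybridisation control covariate and 4488 with the Gapdh 3' to 5' covariate. Without each array in turn they ran from 1687 (without P12 saline replicate 1) to 2134, with 1707 without untreated OIR replicate 2. Against normoxia the 3407 calls became 1405 with the minimum fold and 6365 with all probe sets. The 0 calls of cell-injected P12 groups against P12 saline became 2093 with array weights, 8 once the hybridisation controls were a covariate, and 0 to 52 without each array (52 without ECFC replicate 1, 18 without combination replicate 1). In the gene lists the 128 called members were 80 with the hybridisation control covariate and 256 under array weights, and 76 to 101 without each array (76 without P12 saline replicate 1, 79 without untreated OIR replicate 2). The causes were not tested. Of 118 genes named, 103 were called, and 49 of these were also called with the same sign under every alternative. Tspan8 turned to -0.285 and Pgk2 to -0.150 with the hybridisation control covariate, and as the mean of their probe sets Pax6 turned to -0.0801 and Tfrc to 0.0284. None of these values of opposite sign was called. The mean of a gene's probe sets took 22 named genes out of the calls, the hybridisation control covariate 37.

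Replicate numbers only name the pups, so no pairing was used. The residual correlations of equal numbers were 0.41, 0.05 and 0.45 between saline and untreated OIR. Between saline and normoxia they were -0.15, 0.04 and 0.04, and the source of these values was not tested. A replicate block gave 2730 calls against untreated OIR, 3501 against normoxia and 0 for the cell-injected groups.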

Other observations

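The testis and germ cell list, of which 23 of 27 members were dim, had 3 members called higher and 1 lower after saline, with a median difference of 0.17 against -0.03 over all genes and -0.01 after quantile normalization. The spermatid gene Pgk2 was among them, at 6.19, 5.999 and 6.56 after saline and 4.98, 4.60 and 5.17 in untreated OIR, the latter in the range of Xist on male arrays (4.48 to 5.70), so its fitted differences are no exact folds. They were 1.33 as deposited and -0.15 with the hybridisation control covariate.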
